A study of Homo sapiens with 16 samples.

Results

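The first transcript changes after inhibition of the HER2 kinase were measured in MCF10HER2 cells. The array of cells treated for 3 h was set against the 0 h array, taken as untreated. These are 2 of the 16 arrays of the time series. All probes detected on either array, with a detection p-value under 0.05 against the negative controls, were analysed. They were 11648 of 20589 probes, of which 10143 were detected on both arrays, 770 at 0 h only and 735 at 3 h only. The rule for the members uses the time labels and detection.

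MCF10HER2 cells carry an added HER2 gene (ERBB2), which they express stably at a high level. Their parent, MCF10A, is an immortalized but nontransformed line of human breast epithelium. All cultures grew in serum-free medium without insulin, with EGF and hydrocortisone. Treatment consisted of fresh medium with 1 µM CP724,714, which blocks the HER2 kinase. The 0 h culture has a treatment time of 0 hours and served as the untreated baseline here, although its title also names the inhibitor. Parallel plates were harvested every 3 h. One array represents each time point, so no test between the groups was possible. Inhibitor, fresh medium, time in culture and the difference between single plates cannot be told apart, because no untreated or vehicle-treated culture after 0 h was analysed here.

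HER2 has no known ligand and signals as a dimer with EGFR or ERBB3. Its kinase feeds the RAS-MAPK cascade, which drives immediate early genes such as MYC and FOS, and the PI3K-AKT pathway, which keeps FOXO transcription factors out of the nucleus. When AKT activity drops, FOXO factors enter the nucleus and activate genes of metabolic restraint and growth arrest. Many transcripts at the start of these pathways turn over quickly and can change within hours.

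The upper quartile of intensity was 627 at 0 h and 553 at 3 h, and 10913 and 10878 probes were detected. The dimmest arrays of the series were those of 9 h and 18 h, with upper quartiles of 397 and 418. Of 9 markers listed for basal mammary epithelium, 7 were detected on both arrays, with KRT5 at a log2 intensity of 14.99 on each. TP63 and CDH1 were near the detection limit, KRT14 was detected at 0 h only and ITGA6 on neither array. CDH1 is not specific to the basal type. Of 8 luminal markers, 5 were detected on both, while the hormone receptor genes ESR1 and PGR were not detected. Of those detected, GATA3, FOXA1 and KRT19 were near the detection limit. The luminal keratin KRT8 read 13.90 and 12.91, and the brighter KRT18 probe 14.22 and 14.09. Fibroblast markers were detected in 1 of 6 cases, endothelial markers in 2 of 4 and leukocyte markers in 3 of 5. All of these lay near the detection limit except CD68, a lysosomal protein, at 8.88 and 9.31. The ERBB2 probe itself was near the detection limit and differed by 0.02, so it does not check the over expression.

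A probe was called when it differed by 1.7-fold or more between 3 h and 0 h, the threshold of the study, and by more than the largest of its own 9 differences between successive arrays within 12-21 h, 24-33 h and 36-45 h. These later arrays are the only measure of scatter. By this rule 177 probes rose, 1.52% of those analysed, and 286 fell, 2.46%. Together the 463 called probes were 3.97% and stood for 459 genes. The fold threshold alone gave 468, so the scatter of later arrays removed 5. The median called rise was 0.91 on the log2 scale and the median called fall -0.96. A change of 2-fold or more was reached by 63 of the rises and 124 of the falls. In 8 called probes the dim end was not detected. Their fold is read as a lower bound, except where that end lay well above the lowest detected signal, as in PHACTR3.

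The share of rises and falls depended on how the arrays were scaled. Quantile normalization, the study's choice, gives both arrays the same distribution, and the median difference over all probes analysed was 0.01. With median scaling the median difference was -0.14 over all probes and -0.65 over the brightest 2912, and 12 probes were called higher and 1642 lower. All 177 rises still lay above 0 and all 286 falls below 0, but only 12 of the rises and 285 of the falls were still called. Directions given here are therefore relative to the distribution of each array.

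Between 0 h and 3 h, 4.02% of the probes changed by 1.7-fold or more. Within the 3 sets of later arrays the share was between 0% and 0.275%. The steps from 3 to 6 h, with 3.38%, and from 9 to 12 h, with 4.21%, were of similar size, and 1.59% changed from 6 to 9 h. The steps that joined these sets, from 21 to 24 h and from 33 to 36 h, reached 0.618% and 1.02%, more than any step inside them, and they do not enter the measure of scatter.

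**Figure D1:**
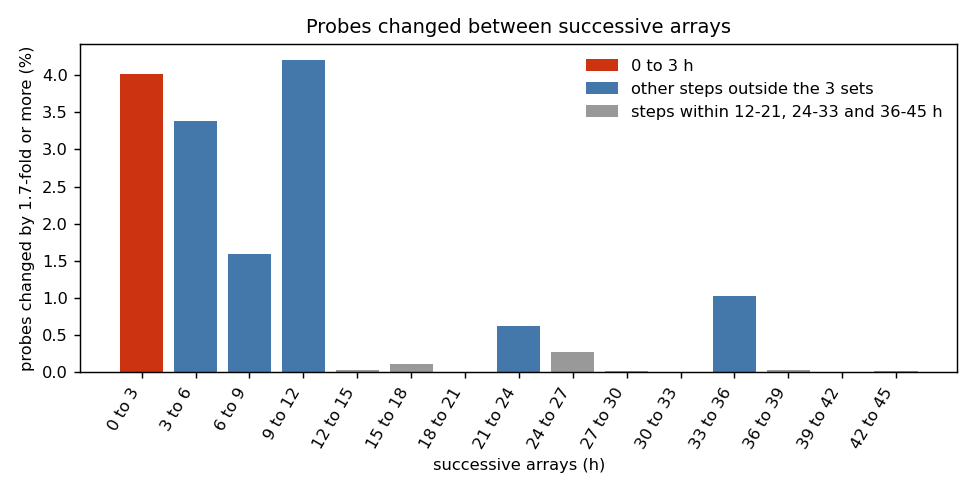
Percent of the 11648 probes that changed by 1.7-fold or more between each array and the next, 1 array a time point. The step from 0 to 3 h reached 4.02%, against at most 0.275% in any step within 12-21 h, 24-33 h or 36-45 h (gray).

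The largest rise was that of TXNIP, which encodes a thioredoxin-binding protein that restrains glucose uptake. Its log2 intensity was 13.26 at 0 h and 15.38 at 3 h, a 4.33-fold rise, and 14.36 to 15.02 on the 4 arrays of 12 to 21 h. The 3 h value lay above every array from 6 to 21 h, and all of those lay above the 0 h array. Its relative ARRDC4, an arrestin-like protein of the same family, moved from 8.18 to 9.21 and lay between 8.01 and 8.12 by 12 to 21 h. Both belong to a list of 30 genes of glycolysis and glucose transport, in which LDHB, a lactate dehydrogenase subunit, fell by 0.95 and no other gene was called. Over all genes taken at 1 probe a gene, 1.59% were called higher and 2.55% lower.

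Among 22 FOXO targets, 4 rose and 1 fell, beside 1.59% higher and 2.55% lower over all 10971 genes taken at 1 probe a gene. The list median was 0.13, and -0.02 with median scaling. BCL6, a transcriptional repressor, rose from 10.06 to 11.88 and was at 10.18 to 11.08 by 12 to 21 h. PDK4, the kinase that shuts pyruvate dehydrogenase, was not detected at 0 h and reached 9.21 at 3 h, a rise of at least 2.38-fold. YPEL3, linked to growth arrest, rose from 9.03 to 9.96 and went on to 11.26 at 6 h. TRIB1, a pseudokinase, fell by 1.19. CDKN1B and CCNG2, cell cycle inhibitors often used as FOXO readouts, differed by 0.29 each, and IRS2 by -0.04. None of these 3 was called.

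Of the called FOXO targets, 4 matched a promoter in RefSeq (GRCh38.p14). In all, 10 motifs were searched in every list, on both strands in the 250 bases before the first listed start. The letters GTAAACA, a FOXO binding motif, were among them. They occurred in TXNIP alone among these 4 genes, and in TXNIP alone among the 18 analysed FOXO targets with a promoter. Of 27305 promoters 2.98% held them. The TXNIP promoter is shown because that gene had the largest rise, with the motif in capitals 124 bases before the start.
TXNIP, chr1:145996580-145996829, minus strand: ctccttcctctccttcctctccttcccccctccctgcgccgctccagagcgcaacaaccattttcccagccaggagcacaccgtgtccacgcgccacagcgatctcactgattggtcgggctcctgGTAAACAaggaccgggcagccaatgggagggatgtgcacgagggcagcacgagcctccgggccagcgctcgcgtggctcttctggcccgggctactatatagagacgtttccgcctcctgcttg

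Other large rises included regulators of growth and chromatin. HBP1, a repressor that restrains cell cycle entry, moved from 8.58 to 10.52 and was at 8.64 by 9 h. KDM5B, a histone H3K4 demethylase, moved from 9.33 to 10.74 and was at 9.42 by 9 h. RGCC, a regulator of the cell cycle, rose from 11.21 to 12.95 and stayed between 13.36 and 13.59 at 12 to 21 h. At 12 to 21 h KDM5B read 9.00 to 9.29, and its mean lay within 1.3-fold of 0 h. HBP1 read 8.67 to 9.13 on those arrays, and its mean lay just outside that limit. RGCC rose further after 3 h.

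RNF39, a RING finger protein, showed the second largest rise, from 8.81 to 10.80. GABARAPL1, an autophagy protein of the ATG8 family, rose by 1.38, CTDSP2, a nuclear phosphatase, by 1.43, and TBC1D15, a regulator of RAB7, by 1.45. ANG, a secreted ribonuclease, rose from 8.69 to 10.06 and reached 11.92 at 9 h. TICAM1, the adaptor of Toll-like receptor signaling also called TRIF, rose by 1.37, and its second probe differed by 0.28. Also among the 15 largest were MTURN at 1.90, KHDC4, an RNA-binding protein, which moved from 9.65 to 11.24, and LOC153222, which moved from 8.05 to 9.55.

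**Figure D2:**
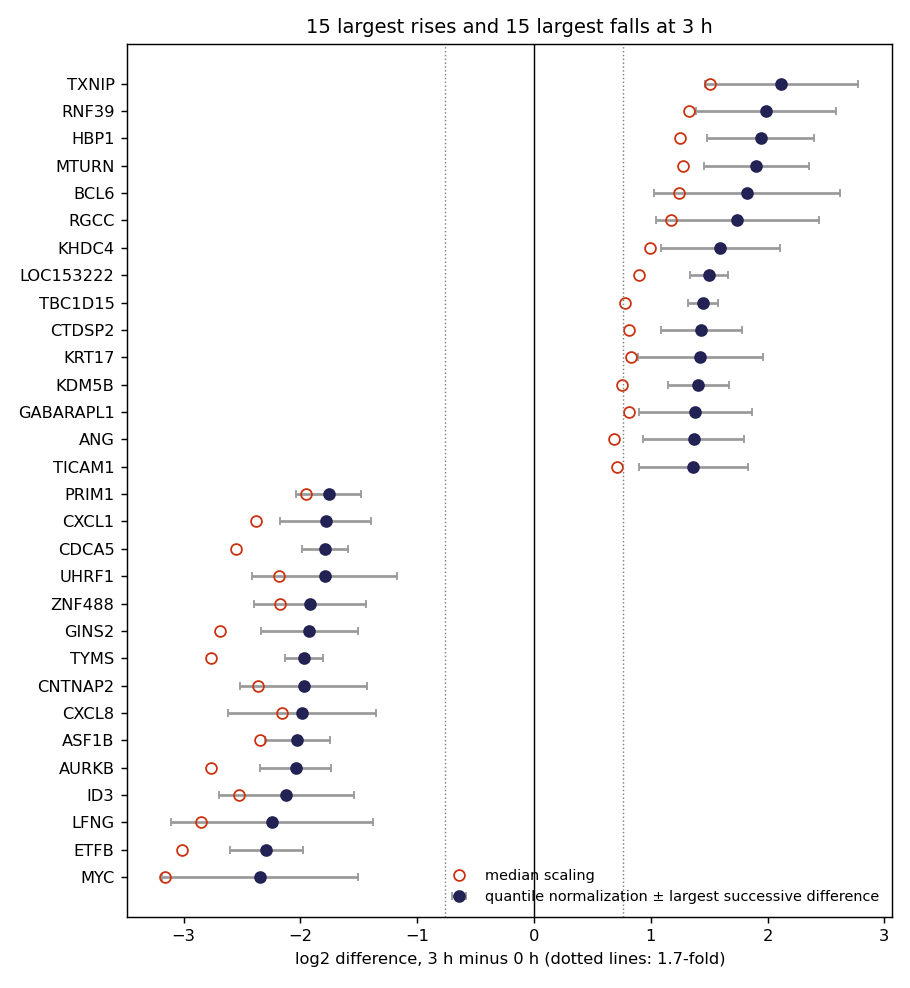
Log2 difference, 3 h minus 0 h, for the 15 leading rises and the 15 leading falls. Filled points are quantile-normalized values, bars show plus and minus the largest of the 9 later successive differences of the probe, and open red circles are values with median scaling. TXNIP led the rises at 2.12 and MYC the falls at -2.35, and no gene changed sign with median scaling.

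Of the 3 ERBB receptor genes analysed, ERBB3 rose, beside 1.59% of all genes. This kinase-impaired partner of HER2 couples strongly to PI3K. Its probe moved from 9.01 to 10.34, read 11.40 at 6 h, and stayed between 10.16 and 10.79 at 12 to 21 h. A second ERBB3 probe, detected on both arrays, differed by -0.02, so the probes of this gene disagreed. EGFR differed by 0.30 and ERBB2 by 0.02, and neither was called. Among the 4 EGF family ligands analysed none was called, and their differences lay between -0.30 and 0.08.

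MYC had the largest fall of all probes. This transcription factor drives growth and ribosome production, and its transcript is short-lived. Its log2 intensity was 12.34 at 0 h and 10.00 at 3 h, a 5.08-fold fall. It was 12.51 at 6 h and lay between 12.08 and 12.40 from 12 to 21 h. The low value thus rests on the 3 h array alone.

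Of 26 immediate early genes, 4 fell and none rose, beside 2.55% lower and 1.59% higher over all genes. The list median was -0.04, and -0.54 with median scaling. Besides MYC these were ZFP36L1, an RNA-binding protein that destabilizes messages, FOSL1, an AP-1 subunit, and CCN1, a matricellular protein. They fell by 1.15, 1.14 and 1.08. FOS and EGR1, the best known readouts of MAPK signaling, differed by 0.05 and 0.12 at 3 h and were not called. Both were lower later, with mean differences of -1.30 and -1.12 at 12 to 21 h. JUN differed by -0.38 and read 8.10 at 3 h, near the detection limit.

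Of 22 MAPK feedback genes, 1 rose and 1 fell, beside 1.59% and 2.55% of all genes, and the list median was -0.02 (-0.10 with median scaling). PHLDA1 fell by 0.87 and CBLB, an E3 ubiquitin ligase for receptor kinases, rose by 1.05. DUSP6, the phosphatase of ERK, differed by 0.10 and SPRY4 by 0.02, but both probes read near the detection limit, where changes are compressed. SPRY2 differed by -0.11 at 3 h and by -0.96 at 12 to 21 h. PHLDA1 read 12.60, 11.73 and 12.58 at 0 h, 3 h and 6 h and 11.26 to 11.49 at 12 to 21 h.

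Genes of the cell cycle were lower at 3 h. All 25 S phase genes analysed lay below 0, 12 fell and none rose, and the list median was -0.73 (-0.88 with median scaling). All 24 G2/M genes lay below 0 too, 8 fell and none rose, with a median of -0.70. Together 20 of 49 genes, 40.8%, were called lower, beside 2.55% of all genes.

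TYMS, the enzyme that makes thymidylate, moved from 11.98 to 10.01. It read 9.95 at 6 h and 10.51 at 9 h, and 11.86 to 12.22 at 12 to 21 h. GINS2, a part of the replicative helicase, fell by 1.93, and TK1, thymidine kinase, by 1.58. RRM1, the large subunit of ribonucleotide reductase, fell by 1.54 and MCM4, a helicase subunit, by 1.52. In these genes the level at 3 h lay below the 12 to 21 h arrays. PCNA, the sliding clamp, differed by -0.53 and CDC6, a licensing factor, by -0.13, and neither was called.

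Among the G2/M genes AURKB, the kinase of the chromosomal passenger complex, fell the most. It moved from 11.63 to 9.59, stayed low with 9.76 at 6 h, and lay at 11.92 to 12.23 at 12 to 21 h. CENPA, the centromeric histone, fell by 1.47, and KIF20A, a mitotic kinesin, by 1.37. CCNA2, cyclin A2, went from 10.46 to 9.17 and then to 11.12 to 11.36. CCNB1, cyclin B1, differed by -0.76 and PLK1 by -0.25, and neither was called. The probes of CDC6 and PLK1 were close to the detection limit.

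Further proliferation genes stood among the 15 largest falls. They were ASF1B, a histone chaperone, at -2.03, UHRF1, which keeps DNA methylation through replication, at -1.79, CDCA5, a cohesin regulator, at -1.79, and PRIM1, the small primase subunit, at -1.76. ASF1B stayed at 8.70 to 8.72 at 6 and 9 h and was 10.31 to 10.78 at 12 to 21 h. CDK4 fell by 0.98, while CCND1, cyclin D1, differed by 0.72 and was not called. CDKN1A differed by -0.04. The remaining members of the 15 included ETFB, a mitochondrial electron carrier subunit, at -2.29, with a second probe at -2.04.

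The letters TTTCCCGC, an E2F binding motif added after the values were seen, occurred on either strand in 4 of the 10 called S phase genes with a RefSeq promoter and in 6 of the 21 analysed. They occurred in 1.42% of all promoters. The 4 called genes are shown because they carry both the motif and the fall. Capitals mark the motif, read here from its reverse strand, 187 bases before the start in MCM7 and 31, 35 and 39 bases before it in GINS2, CDT1 and TYMS. A match of letters is a description and not a binding site.
MCM7, chr7:100101398-100101647, minus strand: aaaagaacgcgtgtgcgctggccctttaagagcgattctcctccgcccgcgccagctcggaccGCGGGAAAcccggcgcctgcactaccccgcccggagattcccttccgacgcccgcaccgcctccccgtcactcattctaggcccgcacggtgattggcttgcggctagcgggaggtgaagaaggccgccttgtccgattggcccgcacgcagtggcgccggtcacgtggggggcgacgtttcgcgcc
GINS2, chr16:85688955-85689204, minus strand: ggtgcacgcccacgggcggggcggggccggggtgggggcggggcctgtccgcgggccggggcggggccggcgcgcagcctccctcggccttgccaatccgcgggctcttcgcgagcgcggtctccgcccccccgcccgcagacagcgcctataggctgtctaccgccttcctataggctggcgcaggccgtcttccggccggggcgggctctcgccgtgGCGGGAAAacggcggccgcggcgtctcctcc
CDT1, chr16:88803539-88803788, plus strand: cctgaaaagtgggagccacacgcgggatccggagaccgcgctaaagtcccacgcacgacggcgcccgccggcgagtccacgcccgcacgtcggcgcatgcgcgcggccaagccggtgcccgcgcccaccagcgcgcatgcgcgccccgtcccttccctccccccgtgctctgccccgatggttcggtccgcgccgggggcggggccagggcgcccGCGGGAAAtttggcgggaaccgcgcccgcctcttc
TYMS, chr18:657403-657652, plus strand: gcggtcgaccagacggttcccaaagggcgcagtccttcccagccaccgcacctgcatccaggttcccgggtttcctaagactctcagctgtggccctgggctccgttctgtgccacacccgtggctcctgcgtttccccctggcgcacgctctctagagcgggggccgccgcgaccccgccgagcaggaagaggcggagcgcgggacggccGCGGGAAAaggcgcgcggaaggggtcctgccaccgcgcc

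CXCL8, a chemokine that attracts neutrophils, went from 10.35 to 8.37 and was 8.32 to 8.98 at 12 to 21 h. CXCL1 went from 11.13 to 9.34 and was 9.12 to 9.43. CCL20 went from 9.33 to 8.44 and was already 9.43 at 6 h. These 3 fell among 17 NF-kappaB targets and cytokines, none rose, and over all genes 2.55% fell. The list median was -0.31, and -0.52 with median scaling. TNFAIP3, an inhibitor of this pathway, differed by -0.66 and NFKBIA by 0.37, and neither was called.

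The ID genes encode inhibitors of basic helix-loop-helix factors and respond to BMP signaling. ID3 went from 10.97 to 8.85 and was 9.58 to 10.14 at 12 to 21 h. ID1 fell by 0.93, whereas ID2 differed by 0.50 and was not called. BAMBI, a decoy receptor of TGF-beta signaling, fell from 13.31 to 12.41 and declined further to 10.17 to 10.59. These were the 3 called of 14 genes in the TGF-beta and ID list, beside 2.55% lower and 1.59% higher over all genes. Further genes outside the lists fell as well. CNTNAP2, a neurexin-related membrane protein, fell by 1.97 and was kept low. LFNG, a glycosyltransferase that modifies Notch receptors, read 11.50, 9.26 and 11.58 at 0 h, 3 h and 6 h. No gene of the 6 Notch targets analysed was called.

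Glucocorticoid targets were examined because the medium holds hydrocortisone and was renewed at the start. Of 19 genes, 4 rose and 1 fell, beside 1.59% and 2.55% of all genes. TIPARP, a mono-ADP-ribosyltransferase, rose by 1.22, ZBTB16, a transcriptional repressor, by 1.05, TSC22D3, known as GILZ, by 1.04, and CEBPD by 0.93. The second TSC22D3 probe differed by 0.06 and was not detected on both arrays. SGK1, a kinase that is also regulated by growth factors, fell from 12.90 to 11.60. FKBP5 and PER1, established glucocorticoid targets, differed by -0.31 and -0.10 and were not called, with PER1 near the detection limit. The list median was 0.09, and -0.12 with median scaling.

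The sterol synthesis genes were split at 3 h. Of 20 genes, TM7SF2, a sterol reductase, fell by 1.66 and MVD, the mevalonate decarboxylase, by 1.07, while SQLE, squalene epoxidase, rose by 0.85. Over all genes 2.55% fell and 1.59% rose. The list median was 0.05, against -0.61 with median scaling. SQLE went from 9.75 to 10.60, then to 9.95 at 6 h and 8.71 to 9.10 at 12 to 21 h. The median of the list was -0.59 at 6 h and -1.26 for the mean of 12 to 21 h. SREBF1, the lipogenic transcription factor, fell by 0.93 at 3 h, but its second probe differed by 0.04 and was not detected on both arrays. ACLY, which makes cytosolic acetyl-CoA, fell from 12.58 to 11.82, right at the threshold. The letters TCACCCCA, a sterol response motif, occurred in 0 of the 2 called sterol synthesis genes with a promoter. They occurred in 1 of the 15 analysed and in 1.26% of all promoters.

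Of 30 genes of the amino acid response, GDF15, a stress cytokine, fell from 12.04 to 10.49 and DDIT3, a transcription factor of the stress response known as CHOP, from 10.34 to 8.98. Over all genes 2.55% fell. The list median was -0.08 at 3 h (-0.71 with median scaling), then -0.53 at 6 h, and reached -1.29 for the mean of 12 to 21 h. ASNS, asparagine synthetase, differed by -0.07 at 3 h and by -2.85 at 12 to 21 h. The letters TGATGCAA, an ATF4 motif, occurred in 0 of the 2 called genes of this list with a promoter. They occurred in 1 of the 26 analysed and in 0.82% of all promoters. PHGDH, the first enzyme of serine synthesis and a gene the study followed, read 13.37 and 13.48 and was not called. VAMP8, a vesicle protein that the study also followed, read 13.14 and 12.91. It was not called and was 13.99 to 14.17 at 12 to 21 h.

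Of 16 heat shock genes, 14 lay above 0 and 3 rose, beside 1.59% of all genes, with a list median of 0.33, although with median scaling the median was -0.18. HSPA1A, an inducible HSP70, went from 11.01 to 11.90, reached 12.12 at 9 h and was 10.91 to 11.39 at 12 to 21 h. Its near-identical copy HSPA1B differed by 0.73, and their probes may share signal. DNAJA1, an HSP40 co-chaperone, and HSPH1, an HSP110, rose by 0.87 each. HSPE1, the mitochondrial chaperonin partner, differed by -0.46.

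The heat shock letters GAANNTTC, where N is any base, occurred in 2 of the 3 called genes and in 5 of 15 analysed genes with a promoter, and in 5.85% of all promoters. The promoters of the called genes with the motif are shown, with the match in capitals 106 bases before the start in HSPA1A and 198 bases before it in DNAJA1.
HSPA1A, chr6:31815293-31815542, plus strand: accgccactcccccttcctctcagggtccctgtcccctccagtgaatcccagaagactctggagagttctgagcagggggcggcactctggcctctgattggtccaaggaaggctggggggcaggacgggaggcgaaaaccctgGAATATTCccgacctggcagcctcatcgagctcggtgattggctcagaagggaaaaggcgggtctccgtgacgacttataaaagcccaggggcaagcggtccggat
DNAJA1, chr9:33025023-33025272, plus strand: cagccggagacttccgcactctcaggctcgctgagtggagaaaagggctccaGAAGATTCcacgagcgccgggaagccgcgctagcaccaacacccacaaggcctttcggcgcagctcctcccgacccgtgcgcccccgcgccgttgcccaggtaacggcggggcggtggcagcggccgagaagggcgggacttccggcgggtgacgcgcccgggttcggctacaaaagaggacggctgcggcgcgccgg

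Of 15 integrin and matrix genes, 13 lay above 0 with a median of 0.46, which was -0.02 with median scaling. ITGA5, the fibronectin receptor subunit, went from 9.60 to 10.61 and to 9.15 to 9.31 at 12 to 21 h. PLAU, urokinase, fell from 10.52 to 9.36. KRT17, a keratin of basal and activated epithelium, rose from 11.51 to 12.94 and was 13.43 to 13.73 at 12 to 21 h. The simple epithelial keratin KRT8 went the other way, from 13.90 to 12.91. KRT5 did not differ, and the brighter KRT18 probe differed by -0.12. KRT17 and KRT8 were the only called genes of 21 keratins, a family chosen after the values were seen. The keratin median was -0.002 (-0.19 with median scaling). Over all genes 1.59% were called higher and 2.55% lower.

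Of 22 oxidative phosphorylation genes, 20 lay below 0 with a median of -0.19 (-0.87 with median scaling), and ATP5MC1, an ATP synthase subunit, was the only one called, at -0.93, with a second called probe at -0.79. HMOX1, heme oxygenase, was the only called gene of 17 NRF2 targets and went from 9.40 to 10.27, then to 8.57 at 6 h. In the BCL2 family the anti-apoptotic BCL2L2 rose by 0.79 and the pro-apoptotic BIK fell by 1.14. ADM, adrenomedullin, fell by 1.59 and BHLHE40, a transcriptional repressor, by 0.77, and these were the only called genes of 18 in the hypoxia list. In that list 12 genes lay above 0, with a median of 0.06 (-0.08 with median scaling). Its largest rise, 0.97, passed 1.7-fold but not the scatter of the later arrays. S100P rose by 1.26 and S100A8 fell by 0.79 in the squamous differentiation list, and MT1G fell by 0.90 in the metallothionein list. Among 18 genes of the unfolded protein response only DDIT3 was called, and among 23 p53 targets only GDF15. CSNK1D rose by 0.81 and FADS1 fell by 0.84. No gene was called in the lists of EGF ligands, aminoacyl-tRNA synthetases, interferon response, Notch targets, polyamine metabolism or ribosome biogenesis. These 6 lists held 72 genes analysed. Beside all lists of this paragraph, the shares over all genes were 1.59% called higher and 2.55% called lower. At these shares a small list can hold no called gene.

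**Figure D3:**
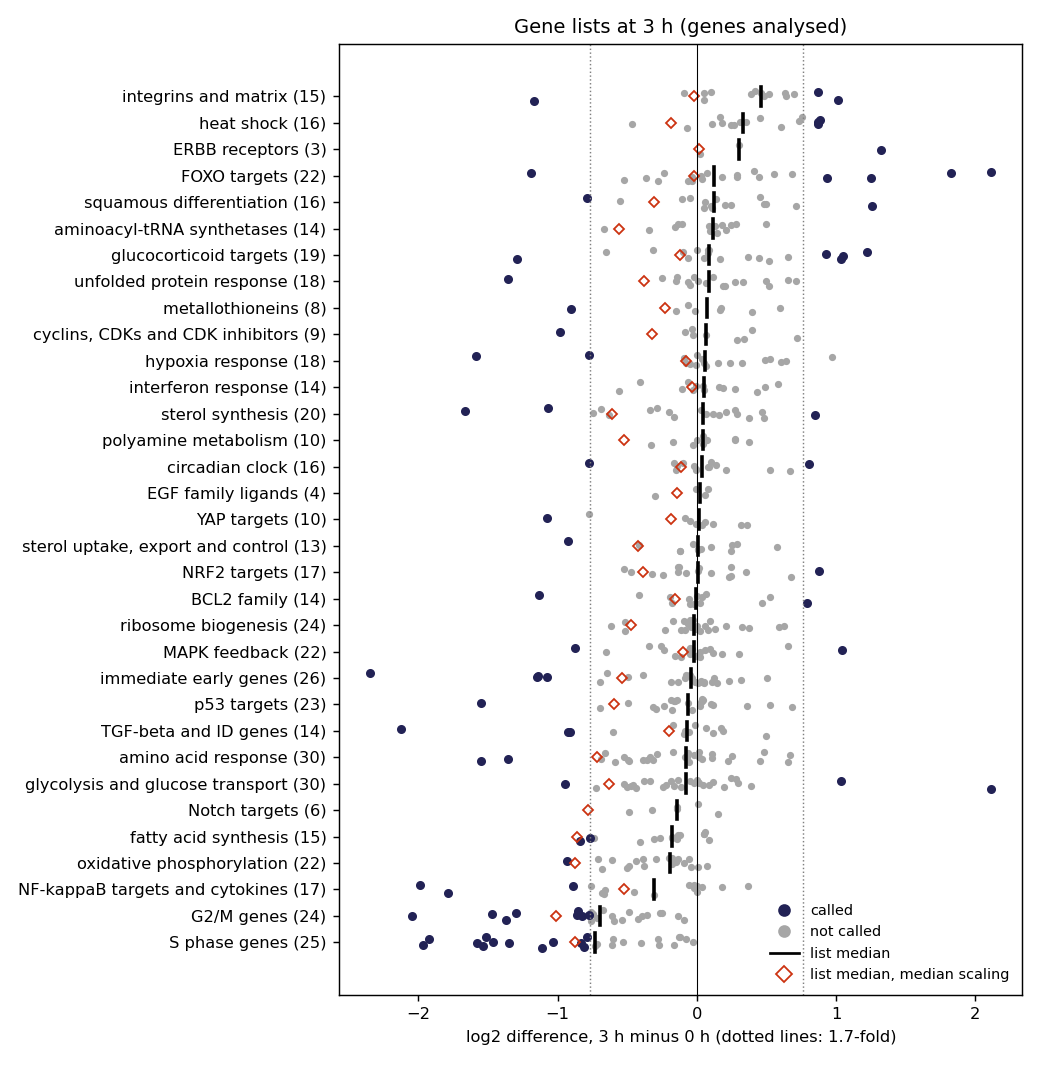
Log2 difference, 3 h minus 0 h, of each gene analysed in 33 gene lists, at 1 probe a gene, with called genes dark, others gray and the list median as a black line. S phase and G2/M genes lie wholly below 0, while 18 of the 19 list medians above 0 lay below 0 with median scaling (red diamonds).

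The called probes were then followed to the arrays of 12 to 21 h. This comparison shares the 0 h array with the 3 h comparison, so a 0 h array that was off by chance would give both a change and a lasting difference. A probe was counted as back when the mean of its 4 values at 12 to 21 h lay within 1.3-fold of 0 h. Of the 463 called probes 215, or 46.4%, were back, beside 78.4% of all probes analysed. They were 90 of the 177 rises and 125 of the 286 falls. A further 63 kept a difference of 1.7-fold or more in the same direction, 24 upward and 39 downward. On the opposite side of 0 h by 1.7-fold or more were 48 probes, 15 that had risen and 33 that had fallen. The remaining 137 lay between these limits.

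The return fell mostly between 6 and 12 h. On the arrays of 6, 9 and 12 h, 77, 131 and 219 of the called probes lay within 1.3-fold of 0 h, and so did 210 to 222 on the arrays of 15, 18 and 21 h. On the first 3 of these arrays, 255, 190 and 57 were still 1.7-fold or more away in the same direction. At 6 h the share within 1.3-fold was 21.5% for rises and 13.6% for falls. For 51 called probes, 29 rises and 22 falls, the 3 h array was also 1.7-fold or more away from the 6 h array in the direction of return. The size of the change at 3 h then rests on that array alone. The 6 h value did not have to be near 0 h. MYC, LFNG, CCL20, ARRDC4 and HMOX1 were such genes. TXNIP was another, but at 14.52 on the 6 h array it still lay above its 13.26 at 0 h.

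**Figure D4:**
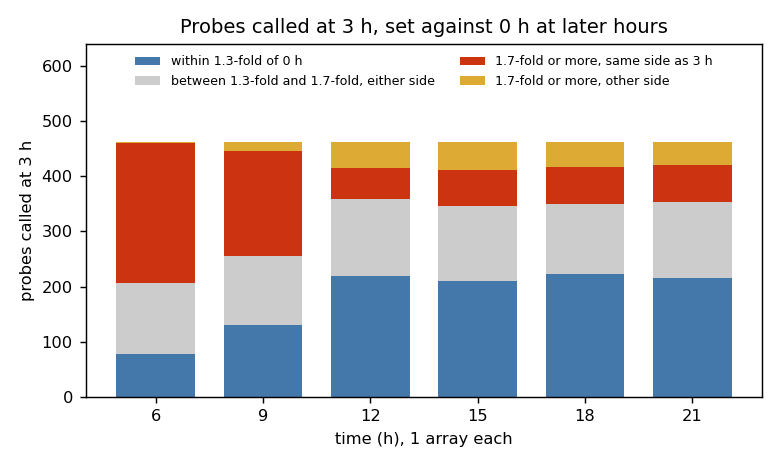
Number of the 463 called probes at each hour from 6 to 21 h, 1 array each, by their distance from the 0 h array. The part within 1.3-fold (blue) grew from 77 at 6 h to 219 at 12 h and stayed near that level.

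The probes that kept their change held TXNIP, RGCC, KRT17, ERBB3, YPEL3 and ANG among the rises. The kept falls held ID3, CXCL8, CXCL1, CNTNAP2, ZNF488, TM7SF2, GDF15 and DDIT3. ZNF488, a zinc finger protein, went from 10.48 to 8.56 and was 8.84 to 9.27 at 12 to 21 h. In the kept genes MVD and BAMBI the difference grew, to -2.89 and -2.95.

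Genes on the opposite side of 0 h were in part of the cell cycle. CDT1, a replication licensing factor, went from 9.77 to 8.42 and then to 10.79 to 11.01 at 12 to 21 h. UBE2T, a ubiquitin-conjugating enzyme of DNA repair, went from 11.15 to 9.43 and then to 12.08 to 12.23. MND1, a recombination factor, fell by 1.28 and lay 1.41 above 0 h later. BCKDK, the kinase of branched-chain keto acid dehydrogenase, went from 10.25 to 8.92 and then to 12.04 to 12.11. PHACTR3, a phosphatase regulator, fell 2.87-fold and lay 1.81 above 0 h later, but its deposited detection p-value was out of line with its intensity. It counted as not detected at 3 h although its 8.84 lay above the lowest detected signal of that array, 7.93. At 6, 9 and 12 h the median difference of the S phase list from 0 h was -0.81, -0.21 and 0.24, and that of the G2/M list -0.96, -0.96 and -0.02.

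**Figure D5:**
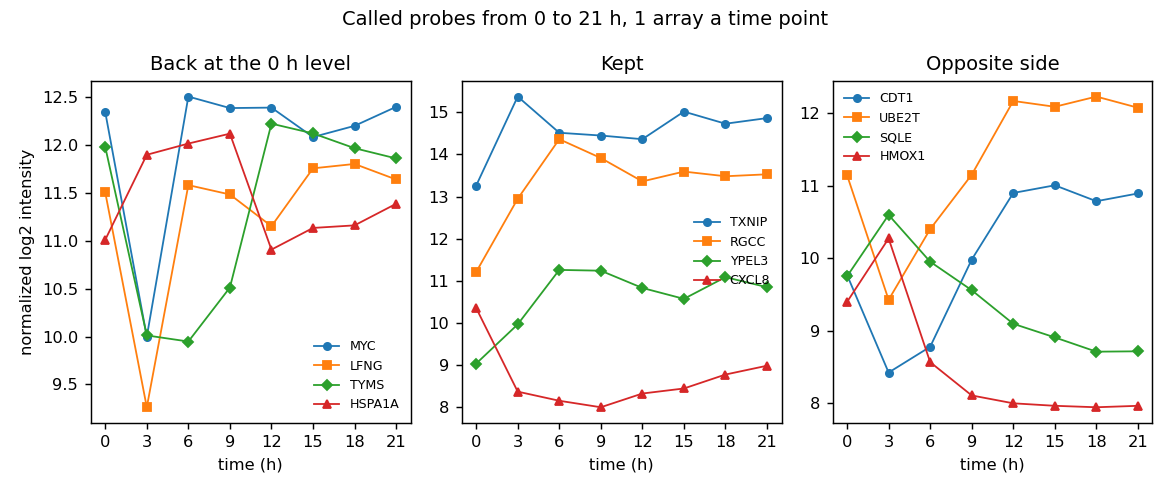
Normalized log2 intensity from 0 to 21 h of 4 probes that were back at the 0 h level, 4 that kept their change and 4 on the opposite side, 1 array a time point. MYC and LFNG were low at 3 h only, TXNIP stayed above 0 h, and CDT1 ended above 0 h after a low of 8.42 at 3 h.

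Genes with several probes gave a partial check on the same 2 arrays. Of 32 genes with a called probe and another one analysed, the 33 other probes differed in the same direction in 29 cases, and 4 of those were called too. They belonged to ATP5MC1, CENPM, ETFB and FAM83A. The 4 probes in the opposite direction belonged to ERBB3, PIK3R1, SREBF1 and STMN1, and none was called. The called probe of UNG, a DNA repair glycosylase in the S phase list, fell by 1.46, while its others differed by -0.02 and -0.06, and its deposited detection p-value was out of line with its intensity. Such irregular p-values touched 45 probes analysed and 6 called.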

How the data were processed

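Per the labels and the methods of the study, RNA of parallel cultures was amplified, biotinylated and read on Illumina beadchips (human Ref-8, v2), 1 array a time point, and the authors compared arrays after quantile normalization with a threshold of 1.7-fold. The authors deposited an intensity for each probe and array, before normalization between arrays, and a detection p-value beside each intensity. The software that made them is not given in the sources used here.

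Intensities were background-corrected and quantile-normalized on the 16 arrays by the neqc function of limma 3.58.1 under R 4.3.3, which inferred the negative controls from the detection p-values and added an offset of 16 before log2 values were taken. This offset draws folds of dim probes toward 1. Arrays were grouped by time label. Symbols are those of the file, updated through a table of RefSeq genes (GRCh38.p14), in which 13336 of 18190 symbols were current and 3240 were synonyms. A call needs 1.7-fold and more than the largest of 9 later successive differences, and has no p-value, since each side has 1 array. The number of arrays limits the precision. Where the dim end was not detected, the fold was taken against the probe's own signal or the lowest detected signal of that array, whichever was higher. The calling script was tested on simulated data. For gene lists, the probe with the highest mean signal stood for a gene.

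Named genes were, among called probes detected at the higher end, the 15 largest rises and 15 largest falls, up to 5 called members of each list and genes that define it, the 6 largest differences among those back, kept and opposite by 12 to 21 h, and VAMP8 and PHGDH. Genes with irregular or disagreeing probes were named besides. The members and lists were chosen with earlier results of these data known. Alternatives covered background correction, scaling, detection, fold, scatter rule, the width of the return and arrays left out. Values of some genes are not reported here.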

Additional observations from a re-analysis of the deposited data

How the results depend on the processing

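Under the alternatives set at the start other than those named next, and under both ways of treating irregular detection p-values, the latter chosen after seeing the data, the number of called probes stayed between 410 and 622, beside 463. The probes called were partly others: normexp without the detection p-values called 343 of the 463, and no background correction called 307. Median scaling gave 1654 called probes, of which 0.73% were higher against 38.2% in the values reported, with 904 back by 12 to 21 h and 168 called genes in the lists. The cause was not tested; median scaling left the brightest 2912 probes at a median difference of -0.65. A threshold of 1.5-fold gave 916 called, 476 back and 120 list genes, and one of 2-fold gave 187, 82 and 40, which follows from the threshold itself. Leaving out each array of 12 to 21 h in turn gave 211 to 219 probes back, beside 215. A width of 1.2-fold gave 159, one of 1.5-fold 308, and normexp without the detection p-values 299. Other probes of a gene lay in the same direction in 128 of 149 cases with median scaling and in 18 of 19 with a detection p-value under 0.01, for which fewer probes were analysed. Of 450 recomputed differences of named genes, none of a called gene changed sign. Sign changes were not counted for VAMP8 and PHGDH, which were not called. In 149 cases the difference moved by more than the root mean square of the probe's later steps, 84 of them with median scaling. No paired analysis was possible because the groups hold 1 array each. Dim probes near the detection limit allow only bounds.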

Other observations

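Families defined by gene symbol, chosen after the values were seen and not tested, gave further groups. Of 75 mitochondrial ribosomal protein genes, 62 lay below 0 at 3 h, 6 fell and none rose, beside 2.55% lower and 1.59% higher over all genes, with a median of -0.27 (-0.92 with median scaling) and 0.03 for the mean of 12 to 21 h. The called genes were MRPL20, MRPL17, MRPL12, MRPL1, MRPS11 and MRPL14. Of 35 complex I subunit genes of the respiratory chain, 33 lay below 0, with a median of -0.27 (-0.92 with median scaling) and NDUFB6 as the only called gene. Proteasome subunit genes lay below 0 in 28 of 36 cases, with a median of -0.23 (-0.76 with median scaling) and none called. Cytosolic ribosomal protein genes had a median of -0.01 (-0.37 with median scaling) over 78 genes, and RPL23 was the only one called. Of 222 zinc finger protein genes, 4 rose and 1 fell, with a median of 0.04 that was -0.03 with median scaling.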
